A study of Mus musculus with 56 samples.

Results

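The 7 genes described here are Cd74, Ciita, H2-Aa, H2-Ab1, H2-Eb1, H2-DMa and H2-DMb1, the genes of mouse MHC class II antigen presentation, chosen by name from the 47937 genes that the count tables list. All 7 were among the 13839 genes that passed the filter on low counts in the table of the Odc experiment and the 13897 that passed it in the table of the Dohh experiment. The measurement was bulk RNA-seq of CD4 T cells of C57BL/6 mice, taken as naive cells from spleen and lymph nodes by negative selection. The cells were activated with anti-CD3 at 5 µg/mL, anti-CD28 at 2 µg/mL and IL-2 at 100 U/mL. They were analysed on day 4 of polarization towards TH1 (anti-IL-4, IL-12 and IL-2), TH2 (anti-IFN-γ, IL-4 and IL-2), TH17 (antibodies to both cytokines with IL-6, TGF-β and IL-1β) or Treg (antibodies to both cytokines with TGF-β and IL-2). The libraries labelled Odc-/- came from mice with Odc flox/flox alleles and a Cre transgene under the CD4 promoter, those labelled Dohh-/- from Dohh flox/flox mice with the same Cre, and each experiment had WT libraries of its own, for which the study names animals without Cre. Odc1 encodes ornithine decarboxylase, which starts polyamine synthesis, and Dohh encodes deoxyhypusine hydroxylase, which completes the hypusine residue of the translation factor eIF5A. The Odc table held 16 WT and 15 Odc-/- libraries, 4 in each group except 3 in TH2 Odc-/-, and 12 WT and 12 Dohh-/- libraries made up the Dohh table, with 3 in each group. By the study's account, Cre under the CD4 promoter deletes in every cell that expresses Cd4 as it develops. Whether other cells carried through the negative selection kept an intact target gene was not tested. The study's methods describe the animals of all strains in general terms, as young adult littermates matched for sex and age, with males and females both used. Whether the replicates were separate animals is not given in the sources used here, so p-values measure the spread between these libraries, which may be technical. Libraries of different subsets with the same replicate number may also share a source, which the main fit does not take into account.

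MHC class II molecules are pairs of an alpha and a beta chain that show peptides from endocytosed proteins to CD4 T cells. H2-Aa and H2-Ab1 encode the alpha and the beta chain of the I-A molecule, and H2-Eb1 encodes the beta chain of I-E. Cd74 is the invariant chain, which fills the groove of a new class II molecule and guides it to endosomes, where H2-DMa and H2-DMb1, the chains of H2-M, help to exchange its remnant for peptide. Ciita is the coactivator that these genes require in professional antigen presenting cells, where it is recruited by a complex of RFX, CREB and NF-Y factors on an X box and a Y box upstream of each gene. B cells, dendritic cells and macrophages are the known sources of these transcripts in spleen and lymph node, and mouse T cells are known for making little of the surface class II protein.

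Of the 7 genes, 5 lie in the class II region of chromosome 17 (GRCm38 coordinates, GENCODE M21): H2-DMa at chr17:34119541-34139101 (plus strand, 2 exons in its longest transcript), H2-DMb1 at chr17:34153072-34160230 (plus strand, 6 exons in its longest transcript), H2-Ab1 at chr17:34257689-34269419 (plus strand, 6 exons in its longest transcript), H2-Aa at chr17:34282744-34287823 (minus strand, 4 exons in its longest transcript) and H2-Eb1 at chr17:34305867-34316674 (plus strand, 6 exons in its longest transcript). Ciita lies apart at chr16:10480059-10528418 (plus strand, 19 exons in its longest transcript), and Cd74 on yet another chromosome. H2-DMa shares 10.4% of its exon length with Brd2 and Ciita 3.45% of its own with Dexi, both on the opposite strand, and H2-DMb1 has a near-identical neighbour, H2-DMb2, so values of these genes carry that uncertainty. H2-Aa and H2-Eb1 are shown by promoter sequence here because they rose in the most comparisons among the chains, and H2-Oa, H2-Ob and H2-Eb2 because they are chains with a promoter of the same kind and other values. A letter search on the promoter sequences of RefSeq (GRCm38.p6, 250 bases before to 50 bases after the transcription start) looked for GNAAC, letters of the X box, followed on the same strand by ATTGG, letters of the Y box, with 28 to 35 bases from the first letter of the one to the first letter of the other. Both strands were read, the motifs cannot overlap at that distance, and the distance was set after these promoters had been looked at. In the lines that follow, each 5′ to 3′ on the strand of the gene, capitals mark the X-like and the Y-like letters.
H2-Aa: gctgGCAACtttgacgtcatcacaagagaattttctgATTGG
H2-Eb1: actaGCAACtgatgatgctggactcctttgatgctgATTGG
H2-Oa: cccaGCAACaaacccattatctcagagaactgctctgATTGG
H2-Ob: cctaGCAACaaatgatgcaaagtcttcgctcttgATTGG
H2-Eb2: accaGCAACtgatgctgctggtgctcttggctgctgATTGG
The stretch of H2-Aa is at chr17:34287867-34287908 on the minus strand, that of H2-Eb1 at chr17:34305772-34305812 on the plus strand, that of H2-Oa at chr17:34092299-34092340 on the plus strand, that of H2-Ob at chr17:34238814-34238852 on the plus strand and that of H2-Eb2 at chr17:34325539-34325579 on the plus strand. The first capital stood 81 bases before the start of H2-Aa and 91 before that of H2-Eb1. Of all 32851 promoters, 84.8% held GNAAC, 37.4% held ATTGG, and 442 (1.35%) held the spaced pair. H2-DMb1 also held the pair, neither of the 2 promoters listed for H2-DMa nor that of H2-DMb2 did, and Ciita, Cd74 and H2-Ab1 were not matched. A match is a match of letters and was not tested as a binding site.

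Total counts ran from 5905374 to 9145214 per library of the Odc experiment, and 6572148 was the lowest and 12576933 the highest of the Dohh experiment, so that 3 counts, the limit that a count of 0 allows, stood for 0.310 to 0.499 CPM (counts scaled for library size) in the one and 0.226 to 0.473 in the other (counting error only). Levels are CPM on library sizes adjusted by the trimmed mean of M values (TMM), replicates are given in their order of number, and folds are log2 fold changes from the edgeR quasi-likelihood fit, and a gene was called where its log2 fold change was beyond 1 in either direction with an adjusted p (Benjamini-Hochberg over all genes of the table) below 0.05. The deleted genes themselves did not check the labels. Odc1 differed in the libraries labelled Odc-/- by 0.26 (SE 0.16, adjusted p = 0.176) in TH1, -0.20 (SE 0.18, adjusted p = 0.339) in TH2, -0.40 (SE 0.16, adjusted p = 0.0416) in TH17 and 0.20 (SE 0.16, adjusted p = 0.282) in Treg (edgeR), none of them called. Dohh was higher, not lower, in the libraries labelled Dohh-/-, by 1.43 (SE 0.26, adjusted p = 0.000132) in TH1, 1.10 (SE 0.26, adjusted p = 0.00167) in TH2, 0.41 (SE 0.26, adjusted p = 0.189) in TH17 and 1.15 (SE 0.26, adjusted p = 0.000844) in Treg (edgeR). The floxed alleles remove only some of the exons, and counts over a whole gene include the exons that remain. Counts by exon were not looked at, and the reason for the higher Dohh counts was not tested. Groups are named by their labels throughout. Cd3e, a chain of the T cell receptor complex, ranged over 178 to 282 CPM in WT and 127 to 273 in Odc-/- libraries, and over 186 to 261 and 98.1 to 326 in the Dohh table. Cd4 ranged over 442 to 1032 and 273 to 694 CPM in the Odc table, but over 661 to 968 CPM in WT and only 22.1 to 79.7 in the libraries labelled Dohh-/-, where it fell by 3.60 to 4.65 on the log2 scale in the 4 subsets (called by edgeR in each).

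In WT cells the beta chain transcript of I-A was the most abundant per length in TH1, TH2 and TH17 cultures, and the alpha chain of the same molecule was scarce. Levels per length are RPKM, the CPM divided by the length of all exons of the gene in kilobases, given as mean ± SD over the WT libraries of a group (n = 4 in the Odc table). In TH1 of the Odc table H2-Ab1 stood at 77.7 ± 10.0 RPKM, Cd74 at 32.8 ± 23.8, H2-DMa at 8.39 ± 1.11, H2-Eb1 at 3.01 ± 0.565, H2-DMb1 at 2.56 ± 0.624, H2-Aa at 0.747 ± 0.280 and Ciita at 0.0571 ± 0.0150. In Treg of the same table Cd74 came first at 87.5 ± 13.4 RPKM and H2-Ab1 at 49.1 ± 16.6. That order depended on the length used, since the longest transcript in place of all exons gave means of 104 and 104 RPKM. Ciita, a regulator, was the lowest of the 7 per length in every WT group of both tables, and its levels in TH1, 0.433, 0.427, 0.726 and 0.592 CPM in the Odc table and 0.166, 0.199 and 0.336 in the Dohh table, lay close to the limit of a few counts.

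Among the WT subsets of the Odc table each of the 7 had its highest mean in TH2 or Treg, and all but H2-Ab1 had the lowest in TH1 or TH17. Of the 7 genes, 5 were called higher in TH2 than in TH1 (edgeR, log2 scale), Ciita by 2.67, H2-Aa by 3.38, H2-Eb1 by 2.17, H2-DMa by 1.17 and H2-DMb1 by 1.33, where 8.87% of all genes tested were called in either direction. H2-Aa had the largest of these differences, with 1.88, 1.99, 3.48 and 4.00 CPM in TH1 and 31.3, 12.9, 36.6 and 38.0 CPM in TH2. TH17 was above TH1 in 2 of them, Ciita by 1.49 and H2-Aa by 1.98 (14.9% of all genes called), and Treg above TH1 in 4, Cd74 by 1.42, Ciita by 1.46, H2-Aa by 2.15 and H2-DMa by 1.20 (19.4%). The 2 calls of TH17 against TH1 became 1 without replicate 1, 3 or 4 of TH17 or replicate 1 or 2 of TH1, and with no filter on low counts. TH17 was below TH2 in 6, all but Cd74, with H2-DMb1 farthest apart at -2.25 (SE 0.40, adjusted p = 4.45e-05) (edgeR, 17.5% of all genes called). Treg was below TH2 in 5, all but Cd74 and H2-DMa (21.1% called), and these 5 became 2 without Treg replicate 2 or 4. Cd74 and H2-DMa were instead called higher in Treg than in TH17, by 1.25 and 1.54 (14% called). For Cd74 the means fell in the order Treg 147 ± 22.4 CPM, TH2 110.1 ± 41.5, TH17 61.6 ± 9.09 and TH1 55.1 ± 39.9 (SD, n = 4), and neighbours in that order were not called apart. For H2-Ab1 the order was TH2 282 ± 11.8 CPM, TH1 199 ± 25.7, TH17 137 ± 28 and Treg 126 ± 42.5 (SD, n = 4), so that TH1, the lowest subset for the alpha chain, was the second for the beta chain, though again no neighbours were called apart. H2-Aa ran in the order TH2 29.7 ± 11.6 CPM, Treg 12.7 ± 7.71, TH17 11.2 ± 5.43 and TH1 2.84 ± 1.06, and H2-Eb1 in the same order from 26.4 ± 7.94 to 5.85 ± 1.10 CPM. TH2 was called above the next subset for both, Treg and TH17 were not called apart for either, and TH17 and TH1 were called apart for H2-Aa only. Ciita had TH2 at 3.54 ± 1.51 CPM, TH17 at 1.56 ± 0.420, Treg at 1.54 ± 0.672 and TH1 at 0.544 ± 0.143, with TH17 and Treg not called apart. H2-DMb1 had TH2 at 10.9 ± 1.55 CPM above TH1, Treg and TH17 at 4.31 ± 1.05, 2.86 ± 1.13 and 2.28 ± 0.377, which were not called apart from each other. H2-DMa had a high pair, Treg at 66.4 ± 6.94 CPM and TH2 at 65.0 ± 3.77, and a low pair, TH1 at 28.9 ± 3.84 and TH17 at 22.9 ± 3.39, with calls between the pairs and none within them.

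The WT libraries of the Dohh experiment, 3 per subset, gave fewer calls. Their order was not in all genes that of the Odc table, since Ciita and H2-Aa had the highest mean in TH17, at 2.39 ± 0.935 and 19.8 ± 5.41 CPM (SD, n = 3), and H2-DMb1 the lowest in Treg, at 2.77 ± 0.315 CPM. TH2 was above TH1 in 2 genes, H2-Aa by 4.78 and H2-DMa by 1.45 (edgeR, 6.21% of all genes called), TH17 above TH1 in 2, Ciita by 3.34 and H2-Aa by 5.13 (12.4%), and Treg above TH1 in 3 genes, Cd74 by 2.35, H2-Aa by 4.00 and H2-DMa by 1.05 (15.5%). H2-Aa again carried the largest differences, and its TH1 libraries held 0.414, 0.199 and 1.12 CPM, which came from 2 to 10 counts. H2-DMb1 was called lower in TH17 than in TH2 (13.7% of all genes called), and H2-DMb1 and H2-Ab1 were called lower in Treg than in TH2 (17.1%). Treg and TH17 differed in 0 of the 7 by edgeR, with 2 of the 7 at an unadjusted p below 0.05 and 7.07% of all genes called. Leaving out a single WT library changed the number of calls in several of these pairs, as given with the limits at the end.

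In the libraries labelled Odc-/-, Ciita, Cd74, H2-Aa and H2-Eb1 rose in all 4 subsets with no overlap between the genotypes, whereas H2-Ab1, the partner chain of H2-Aa, did not rise in any. The share of all genes whose groups did not overlap was not counted. Lack of overlap, here and below, is therefore only a description of the libraries. The number of members called higher by edgeR was 4 of 7 in TH1, against 10.2% of all genes tested, 4 in TH2 against 11.5%, 4 in TH17 against 8.35% and 5 in Treg against 13.9%. The number called lower was 0 in each, where 11.3%, 13.6%, 7.21% and 10.1% of all genes were. Of the 7, 1 in TH1 and 1 in TH17 (H2-Ab1 both times) had an unadjusted p below 0.05 on the lower side and none did in TH2 and Treg, and DESeq2 called 1 lower in TH1 and 0 in the others. With a stricter test, glmTreat of a change beyond 2-fold, the number higher fell to 2 in TH17, where Cd74 and H2-Aa (adjusted p = 0.339 and 0.0699) were lost, and to 3 in Treg, where Cd74 and H2-DMb1 (0.511 and 0.375) were. The median log2 fold change over the 7 genes was 2.75 in TH1, 2.48 in TH2, 1.53 in TH17 and 1.34 in Treg, beside 0.02, -0.00, 0.05 and 0.07 over all genes tested.

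Ciita, the class II coactivator, went from the edge of detection to a clear level in TH1, with 0.433, 0.427, 0.726 and 0.592 CPM in WT and 8.91, 4.89, 4.79 and 5.32 CPM in the libraries labelled Odc-/-. The lowest Odc-/- library was thus above the highest WT library by several fold, and the fitted fold was 10.7. In TH2 Ciita was at 4.29, 1.33, 3.88 and 4.67 CPM in WT and 28.8, 19.0 and 17.3 CPM in the libraries labelled Odc-/-. In TH17 it was at 1.74, 0.936, 1.70 and 1.86 CPM in WT and 4.12, 4.60, 11.3 and 7.81 CPM in the libraries labelled Odc-/-, and in Treg at 1.38, 0.723, 1.73 and 2.33 CPM in WT and 27.8, 13.98, 13.98 and 12.4 CPM in the libraries labelled Odc-/-. Its log2 fold changes were 3.42 (SE 0.48, adjusted p = 3.86e-06) in TH1, 2.61 (SE 0.36, adjusted p = 1.90e-06) in TH2, 2.13 (SE 0.39, adjusted p = 9.41e-05) in TH17 and 3.47 (SE 0.37, adjusted p = 2.29e-08) in Treg (edgeR). The Treg and TH1 groups each held 1 library, replicate 1, well above the other 3.

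Cd74, the invariant chain (chromosome 18), took the first place per length from H2-Ab1, with 221 ± 116 RPKM beside 39.3 ± 30.9 in TH1 Odc-/- (mean ± SD, n = 4), and it was first of the 7 by mean in all 4 Odc-/- groups. In TH1 it was at 31.2, 33.4, 41.2 and 115 CPM in WT and 662, 294, 278 and 248 CPM in the libraries labelled Odc-/-. In TH2 it was at 112, 54.1, 119.7 and 154 CPM in WT and 1076, 1022 and 777 CPM in the libraries labelled Odc-/-. These are folds of 6.72 and 8.71, and no Odc-/- library reached down to a WT library. In TH17 Cd74 was at 61.2, 49.3, 65.1 and 70.8 CPM in WT and 115, 161, 289 and 146 CPM in the libraries labelled Odc-/-, and in Treg at 162, 124, 170.2 and 131 CPM in WT and 529, 242, 432 and 188 CPM in the libraries labelled Odc-/-. The groups were again apart, but by less, and the log2 fold changes were 2.75 (SE 0.42, adjusted p = 1.13e-05) in TH1, 3.12 (SE 0.43, adjusted p = 2.79e-06) in TH2, 1.53 (SE 0.40, adjusted p = 0.00326) in TH17 and 1.24 (SE 0.39, adjusted p = 0.00846) in Treg (edgeR). Without WT replicate 4, the highest WT library, the TH1 value was 3.39. Without replicate 1 of the Odc-/- Treg libraries the Treg value was 0.97 and no longer above the threshold of 1.

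The alpha chain H2-Aa and the I-E beta chain H2-Eb1 rose side by side. H2-Aa was at 1.88, 1.99, 3.48 and 4.00 CPM in WT and 79.6, 37.8, 30.8 and 34.7 CPM in the libraries labelled Odc-/- for TH1, a fold of 16.04. For TH2 it was at 31.3, 12.9, 36.6 and 38.0 CPM in WT and 242, 221 and 169.6 CPM in the libraries labelled Odc-/-. For TH17 it was at 13.3, 5.27, 17.6 and 8.48 CPM in WT and 27.4, 44.0, 76.4 and 40.1 CPM in the libraries labelled Odc-/-, and for Treg at 15.0, 7.85, 22.5 and 5.36 CPM in WT and 192, 82.3, 129 and 54.2 CPM in the libraries labelled Odc-/-. All Odc-/- libraries lay above all WT libraries of their subset, and the log2 fold changes were 4.00 (SE 0.55, adjusted p = 4.34e-06) in TH1, 2.83 (SE 0.46, adjusted p = 1.68e-05) in TH2, 2.06 (SE 0.46, adjusted p = 0.000811) in TH17 and 3.17 (SE 0.46, adjusted p = 2.74e-06) in Treg (edgeR). H2-Eb1 was at 5.20, 4.69, 6.39 and 7.11 CPM in WT and 103, 41.0, 35.2 and 39.5 CPM in the libraries labelled Odc-/- for TH1 and at 29.3, 14.5, 31.1 and 30.6 CPM in WT and 166, 164 and 114 CPM in the libraries labelled Odc-/- for TH2. It was at 12.3, 5.15, 11.7 and 7.78 CPM in WT and 23.1, 40.2, 79.5 and 37.3 CPM in the libraries labelled Odc-/- for TH17 and at 13.4, 7.44, 17.9 and 5.24 CPM in WT and 142, 58.4, 113 and 49.0 CPM in the libraries labelled Odc-/- for Treg. Its log2 fold changes, 3.22 (SE 0.47, adjusted p = 7.77e-06) in TH1, 2.48 (SE 0.43, adjusted p = 3.36e-05) in TH2, 2.28 (SE 0.44, adjusted p = 0.000204) in TH17 and 3.04 (SE 0.43, adjusted p = 2.21e-06) in Treg (edgeR), again came with no overlap between the groups. Both chains were highest in the TH2 libraries of either genotype.

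H2-Ab1, the I-A beta chain, showed the other pattern. In TH1 it was at 206, 198, 228 and 166 CPM in WT and 219.9, 60.3, 60.0 and 64.0 CPM in the libraries labelled Odc-/-, so that 3 of the 4 Odc-/- libraries lay below every WT library and replicate 1 lay among them. In TH2 it was at 265, 289, 288 and 288 CPM in WT and 249.5, 304 and 201 CPM in the libraries labelled Odc-/-, in TH17 at 149.5, 156, 147 and 95.6 CPM in WT and 92.4, 47.1, 101 and 50.9 CPM in the libraries labelled Odc-/- and in Treg at 148, 126, 163 and 66.5 CPM in WT and 174, 64.8, 145 and 53.0 CPM in the libraries labelled Odc-/-. The groups overlapped in all 4 subsets, and the log2 fold changes were -0.98 (SE 0.38, adjusted p = 0.0306) in TH1, -0.17 (SE 0.41, adjusted p = 0.739) in TH2, -0.92 (SE 0.38, adjusted p = 0.0512) in TH17 and -0.21 (SE 0.38, adjusted p = 0.653) in Treg (edgeR), none past both thresholds. In TH1 the value became -1.72 without Odc-/- replicate 1 and -1.06 without WT replicate 4, and either of these would have been called lower. In TH17 it would have been called without Odc-/- replicate 1, Odc-/- replicate 3 or WT replicate 4, at -1.06, -1.11 and -1.06.

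The chains of the peptide exchange factor H2-M were called once in 8 tests. H2-DMa had log2 fold changes of -0.16 (SE 0.18, adjusted p = 0.463) in TH1, 0.43 (SE 0.18, adjusted p = 0.0439) in TH2, 0.23 (SE 0.18, adjusted p = 0.307) in TH17 and -0.33 (SE 0.17, adjusted p = 0.0988) in Treg (edgeR), with a range over all subsets of 18.2 to 72.6 CPM in WT and 19.7 to 96.2 in Odc-/-. The TH2 groups did not overlap, at 64.2, 60.4, 69.5 and 65.9 CPM in WT and 96.2, 88.2 and 78.9 CPM in the libraries labelled Odc-/-, but the difference was under the fold threshold. H2-DMb1 was called higher in Treg alone, at 3.92, 2.89, 3.34 and 1.28 CPM in WT and 11.6, 3.13, 10.4 and 4.17 CPM in the libraries labelled Odc-/-, where 1 Odc-/- library, replicate 2, lay within the range of the WT libraries. Its log2 fold changes were 0.47 (SE 0.40, adjusted p = 0.320) in TH1, 0.40 (SE 0.38, adjusted p = 0.369) in TH2, 0.9973 (SE 0.42, adjusted p = 0.0535) in TH17 and 1.34 (SE 0.40, adjusted p = 0.00495) in Treg (edgeR). The difference of that change between subsets did not pass the interaction test given further on. In TH17 it would have been called without Odc-/- replicate 1, at 1.25.

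**Figure D1:**
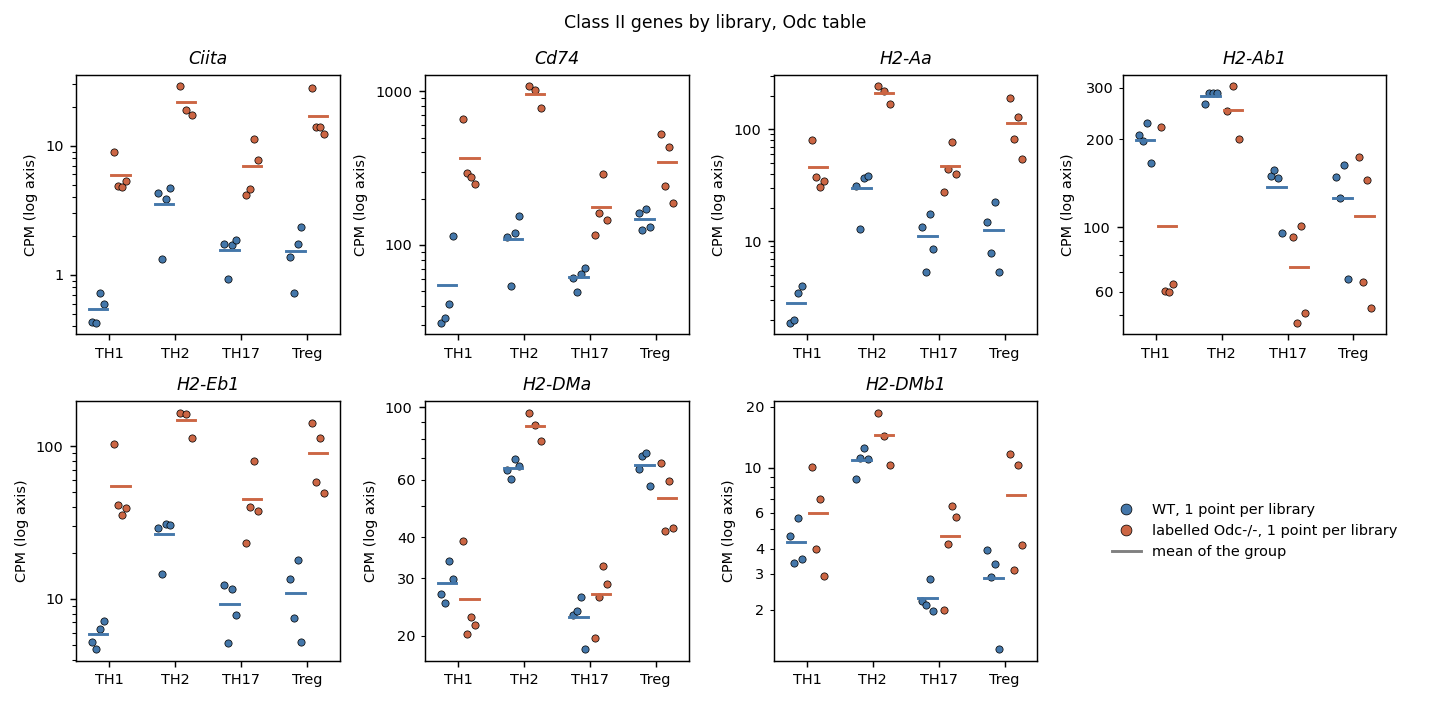
CPM (log axis) of the 7 class II genes in each library of the Odc table by subset, WT in blue and libraries labelled Odc-/- in red, with 1 point per library and a bar at the mean of the group. Ciita, Cd74, H2-Aa and H2-Eb1 have all red points above all blue points in each subset, while red and blue points of H2-Ab1 overlap in each subset, and replicate 1 of the TH1 Odc-/- libraries (first red point) stands above the other 3 for Ciita, Cd74, H2-Aa, H2-Ab1, H2-Eb1 and H2-DMa.

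In the libraries labelled Dohh-/-, fewer class II genes were called in TH1 and TH2 and more in TH17 and Treg. The number called higher by edgeR was 1 of 7 in TH1, against 14.8% of all genes tested, 3 in TH2 against 14.3%, 5 in TH17 against 17.3% and 6 in Treg against 17.5%. The share of members in TH1 was thus near the share of all genes. The number called lower was 0 in each subset, where 14.2%, 11.6%, 14.1% and 15.2% of all genes were, with 2 of the 7 in TH1 and 1 in TH2 at an unadjusted p below 0.05 on that side, and DESeq2 called 1 lower in TH1 and 0 in the others. The median over the 7 genes was 0.36, 1.40, 3.10 and 3.13 in TH1, TH2, TH17 and Treg, beside 0.01, 0.02, 0.01 and 0.03 over all genes.

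The libraries within a Dohh-/- group stood far apart, and markers of monocytes and macrophages moved with the class II genes. Lyz2, lysozyme 2 of myeloid cells, was at 67.0, 4211 and 1205 CPM in the TH17 Dohh-/- libraries and at 56.2, 2855 and 1641 CPM in the Treg ones, against 0.0996 to 18.4 CPM over the 12 WT libraries. Replicates 2 and 3 are the same libraries in which the class II genes were highest. Results for these subsets are therefore given with all libraries and with those 2 left out, an alternative chosen after the values were seen, which leaves 1 Dohh-/- library in the group and assumes that it varies like the other groups.

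Ciita was at 3.47, 1.85 and 1.85 CPM in WT and 4.16, 12.4 and 10.4 CPM in the libraries labelled Dohh-/- for TH17 and at 1.05, 0.122 and 1.11 CPM in WT and 4.198, 12.1 and 10.1 CPM in the libraries labelled Dohh-/- for Treg. For TH2 it was at 2.72, 0.106 and 0.897 CPM in WT and 2.73, 6.52 and 4.24 CPM in the libraries labelled Dohh-/-. Its lowest TH2 Dohh-/- library barely passed the highest WT library, while the Treg groups were well apart. For TH1 Ciita was near the limit of detection in both genotypes, with 14 counts over the 3 Dohh-/- libraries and 7 over the 3 WT libraries, a ratio of 2.46 at equal depth (95% counting interval 0.931 to 7.21). The log2 fold changes were 1.28 (SE 0.99, adjusted p = 0.291) in TH1, 1.80 (SE 0.67, adjusted p = 0.0323) in TH2, 1.89 (SE 0.63, adjusted p = 0.0164) in TH17 and 3.44 (SE 0.70, adjusted p = 0.000341) in Treg (edgeR). Without both high Lyz2 libraries they were 0.79 in TH17, not called, and 2.33 in Treg, still called.

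Cd74 was at 97.4, 75.6 and 83.4 CPM in WT and 258, 1086 and 853 CPM in the libraries labelled Dohh-/- for TH17, and at 104, 156 and 127 CPM in WT and 124, 815 and 774 CPM in the libraries labelled Dohh-/- for Treg. For TH2 it was at 132, 70.3 and 78.0 CPM in WT and 155, 565 and 366 CPM in the libraries labelled Dohh-/-. Replicate 1 of the Dohh-/- libraries was the lowest of its group in these subsets, and in Treg it lay within the WT range. For TH1 Cd74 was at 23.6, 27.9 and 24.6 CPM in WT and 27.2, 154 and 27.2 CPM in the libraries labelled Dohh-/-, where replicate 2 alone was high. The log2 fold changes were 1.44 (SE 0.71, adjusted p = 0.0982) in TH1, 1.95 (SE 0.70, adjusted p = 0.0309) in TH2, 3.10 (SE 0.73, adjusted p = 0.00193) in TH17 and 2.15 (SE 0.71, adjusted p = 0.0159) in Treg (edgeR). Without both high Lyz2 libraries they were 1.598 in TH17 and -0.09 in Treg, neither called.

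H2-Aa was the only member called in all 4 subsets of the Dohh table. It was at 24.1, 13.8 and 21.6 CPM in WT and 62.9, 418 and 463 CPM in the libraries labelled Dohh-/- for TH17 and at 10.9, 8.02 and 8.10 CPM in WT and 37.9, 291 and 333 CPM in the libraries labelled Dohh-/- for Treg. For TH2 it was at 24.8, 8.46 and 13.1 CPM in WT and 34.0, 99.7 and 88.1 CPM in the libraries labelled Dohh-/-, and for TH1 at 0.414, 0.199 and 1.12 CPM in WT and 4.80, 23.4 and 2.76 CPM in the libraries labelled Dohh-/-. No Dohh-/- library overlapped the WT libraries of its subset, and the log2 fold changes were 4.13 (SE 1.20, adjusted p = 0.00850) in TH1, 2.25 (SE 0.81, adjusted p = 0.0319) in TH2, 3.98 (SE 0.86, adjusted p = 0.000970) in TH17 and 4.61 (SE 0.90, adjusted p = 0.000363) in Treg (edgeR). In TH1 these were 220 counts against 17, a ratio of 15.9 at equal depth (95% counting interval 9.73 to 27.9), and without Dohh-/- replicate 2 the log2 fold change was 2.76 and not called, while without WT replicate 3 it was 4.91. Without both high Lyz2 libraries the values were 1.67 in TH17 and 2.03 in Treg, neither called.

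H2-Eb1 was at 28.7, 18.4 and 21.7 CPM in WT and 64.4, 272 and 524 CPM in the libraries labelled Dohh-/- for TH17 and at 19.8, 18.6 and 17.2 CPM in WT and 34.7, 199 and 274 CPM in the libraries labelled Dohh-/- for Treg. For TH2 it was at 35.7, 24.1 and 23.0 CPM in WT and 38.3, 92.5 and 88.7 CPM in the libraries labelled Dohh-/-, with no overlap but not called, and for TH1 at 8.78, 12.1 and 9.31 CPM in WT and 4.60, 31.4 and 4.19 CPM in the libraries labelled Dohh-/-, where 2 of the 3 Dohh-/- libraries lay below all WT libraries. Its log2 fold changes were 0.36 (SE 0.80, adjusted p = 0.728) in TH1, 1.40 (SE 0.74, adjusted p = 0.133) in TH2, 3.64 (SE 0.80, adjusted p = 0.00110) in TH17 and 3.19 (SE 0.79, adjusted p = 0.00249) in Treg (edgeR). That of TH1 was -1.19 without Dohh-/- replicate 2, and those of TH17 and Treg were 2.88 and 2.60 without replicate 3, both still called. Without both high Lyz2 libraries those of TH17 and Treg were 1.49 and 0.87, neither called.

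H2-Ab1 was below WT in every Dohh-/- library of TH1 and TH2 and above WT in 2 of 3 libraries of TH17 and Treg. It was at 189.9, 187 and 173 CPM in WT and 34.4, 101 and 103 CPM in the libraries labelled Dohh-/- for TH1, and at 305, 316 and 261 CPM in WT and 201, 200.2 and 158 CPM in the libraries labelled Dohh-/- for TH2. It was at 188, 170.0 and 198 CPM in WT and 108, 411 and 614 CPM in the libraries labelled Dohh-/- for TH17, and at 122, 126 and 98.9 CPM in WT and 82.7, 337 and 400.0 CPM in the libraries labelled Dohh-/- for Treg. Replicate 1 lay below all WT libraries in all 4 subsets. The log2 fold changes were -1.21 (SE 0.50, adjusted p = 0.0506) in TH1, -0.66 (SE 0.49, adjusted p = 0.291) in TH2, 1.03 (SE 0.49, adjusted p = 0.0888) in TH17 and 1.25 (SE 0.50, adjusted p = 0.0413) in Treg (edgeR), of which that of Treg was called. Without both high Lyz2 libraries the sign turned, to -0.77 in TH17 and -0.51 in Treg, neither called.

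H2-DMb1 rose in TH17 and Treg, where it was at 3.55, 3.51 and 2.31 CPM in WT and 9.94, 51.8 and 70.9 CPM in the libraries labelled Dohh-/- and at 2.41, 2.92 and 2.98 CPM in WT and 6.30, 30.6 and 36.0 CPM in the libraries labelled Dohh-/-. Even the lowest Dohh-/- library was above the highest WT library in both. Its log2 fold changes were 0.09 (SE 0.63, adjusted p = 0.921) in TH1, 0.82 (SE 0.57, adjusted p = 0.253) in TH2, 3.803 (SE 0.65, adjusted p = 8.65e-05) in TH17 and 3.13 (SE 0.64, adjusted p = 0.000427) in Treg (edgeR), and without both high Lyz2 libraries 1.66 in TH17, still called, and 1.15 in Treg, not called. H2-DMa, its partner chain, was at 35.1, 40.6 and 39.0 CPM in WT and 14.1, 26.8 and 21.9 CPM in the libraries labelled Dohh-/- for TH1 and at 105, 117 and 92.0 CPM in WT and 54.8, 80.1 and 47.7 CPM in the libraries labelled Dohh-/- for TH2. All Dohh-/- libraries of these 2 subsets lay below WT, with adjusted p below 0.05 but under the fold threshold. The log2 fold changes of H2-DMa were -0.88 (SE 0.24, adjusted p = 0.00539) in TH1, -0.78 (SE 0.24, adjusted p = 0.0104) in TH2, 0.37 (SE 0.24, adjusted p = 0.189) in TH17 and -0.29 (SE 0.23, adjusted p = 0.303) in Treg (edgeR), and without Dohh-/- replicate 2 it would have been called lower in TH1 and in TH2, at -1.09 and -1.03.

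**Figure D2:**
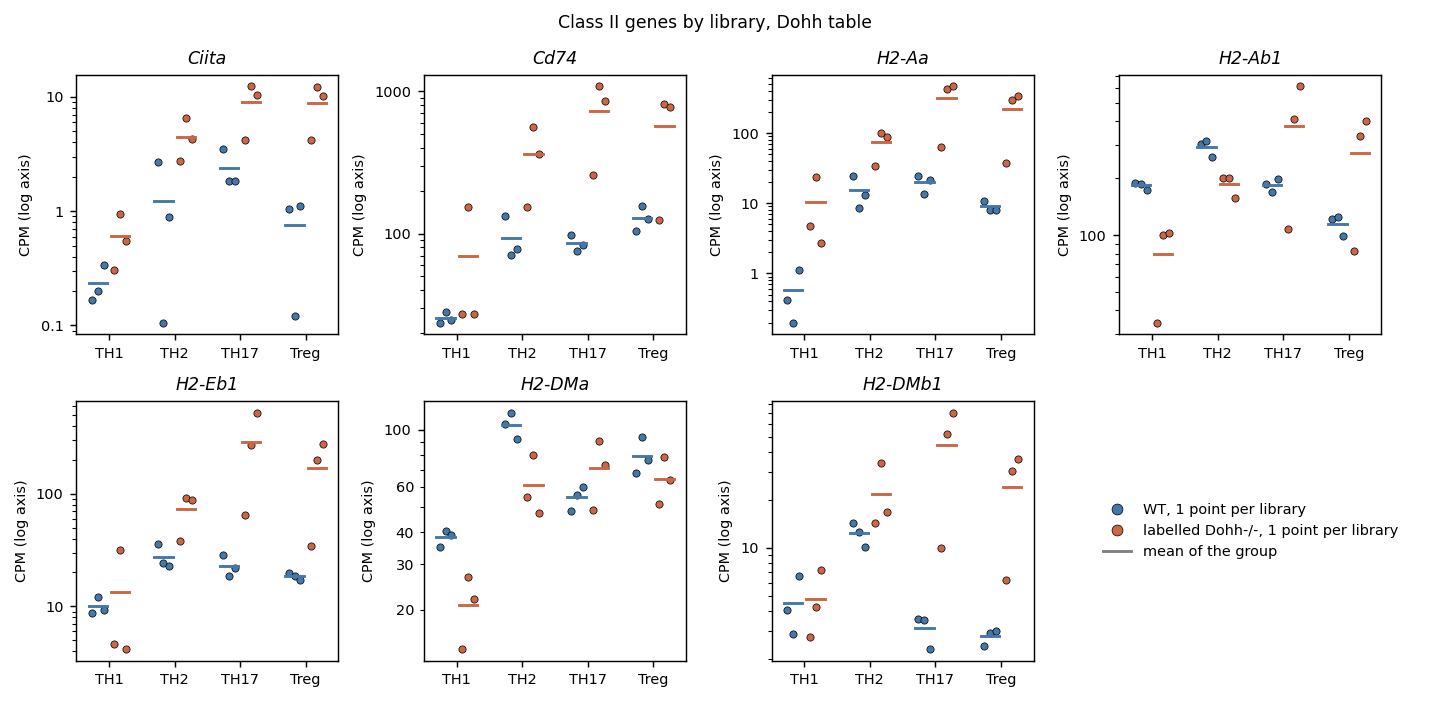
CPM (log axis) of the 7 class II genes in each library of the Dohh table by subset, WT in blue and libraries labelled Dohh-/- in red, with 1 point per library and a bar at the mean of the group. H2-Aa has all red points above all blue points in each subset, and in TH17 and Treg replicates 2 and 3 stand well above replicate 1.

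The TH2 calls of the Dohh table were not firm. With no filter on low counts or with glmTreat, 0 of the 3 were called. Leaving out Dohh-/- replicate 2 or 3, or WT replicate 2 or 3, lost all 3 (edgeR), with log2 fold changes of 1.47 to 1.94 for Cd74, 1.24 to 1.84 for Ciita and 1.92 to 2.14 for H2-Aa over those 4 libraries, while without WT replicate 1 Ciita was at 3.15. In TH1, leaving out Dohh-/- replicate 1 gave 2 calls in place of 1, adding Cd74 at 1.86, and leaving out replicate 2 lost H2-Aa. In TH17, Ciita was not called without Dohh-/- replicate 2, WT replicate 2 or WT replicate 3, at 1.57, 1.73 and 1.74. In Treg, Cd74 was not called without Dohh-/- replicate 2 or 3 or WT replicate 1 or 3, at 1.73 to 2.07, and H2-Ab1 was lost without any library of its 2 groups other than Dohh-/- replicate 1, at 0.81 to 1.25. In TH17 H2-Ab1 would have been called without Dohh-/- replicate 1, at 1.46.

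The change with genotype was then compared between subsets. In the Odc table Cd74, 1 of the 7, had a change that differed between subsets (edgeR interaction test, adjusted p = 0.0222), where 34.8% of all genes did, its log2 fold change being largest in TH2 and smallest in Treg. That count of 1 was 0 with no filter on low counts and 2 with RLE scaling or the replicate block. In the Dohh table there were 3, H2-Ab1 (adjusted p = 0.0311), H2-DMa (adjusted p = 0.0318) and H2-DMb1 (adjusted p = 0.00959), where 17.9% of all genes did (edgeR). Of these, H2-Ab1 and H2-DMa had negative log2 fold changes in TH1 and TH2 and positive ones in TH17, and those of H2-DMb1 were 3.803 and 3.13 in TH17 and Treg against 0.09 and 0.82 in TH1 and TH2. Without both high Lyz2 libraries the TH17 values of H2-Ab1 and H2-DMa were negative, at -0.77 and -0.16. Those of H2-DMb1 were then 1.66 in TH17 and 1.15 in Treg. The interaction test was not repeated without these libraries.

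The change in the libraries labelled Odc-/- was also compared with that in those labelled Dohh-/-, each against its own WT libraries, in one fit of both tables. For TH1 the call was H2-Eb1, whose Odc change exceeded its Dohh change by 2.85 (SE 0.92, adjusted p = 0.0252) on the log2 scale (edgeR), 1 of 7 against 9.96% of all genes, and 0 with no filter on low counts. The Dohh change in it, called at neither value, changed sign without Dohh-/- replicate 2, as given above. For TH2 it was H2-DMa, by 1.23 (SE 0.30, adjusted p = 0.00374) (edgeR), 1 of 7 against 9.09%. For TH17 there were 2 of 7 against 12.7%, H2-Ab1 at -1.996 (SE 0.65, adjusted p = 0.0224) and H2-DMb1 at -2.86 (SE 0.75, adjusted p = 0.00504) (edgeR), both more positive in the Dohh experiment, and 1 with no filter. Without both high Lyz2 libraries the Dohh changes in TH17 were -0.77 for H2-Ab1 and 1.66 for H2-DMb1. The difference between the deletions was not fitted again without them. For Treg 0 of 7 were called by edgeR, with 2 at an unadjusted p below 0.05, against 16% of all genes, and 2 were called with the replicate block. Cd74, Ciita and H2-Aa were not called apart in any subset, with differences from -1.98 to 2.13, which does not show that they changed alike. The experiments were deposited as separate tables, so a difference between them cannot be told apart from one between the experiments themselves.

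**Figure D3:**
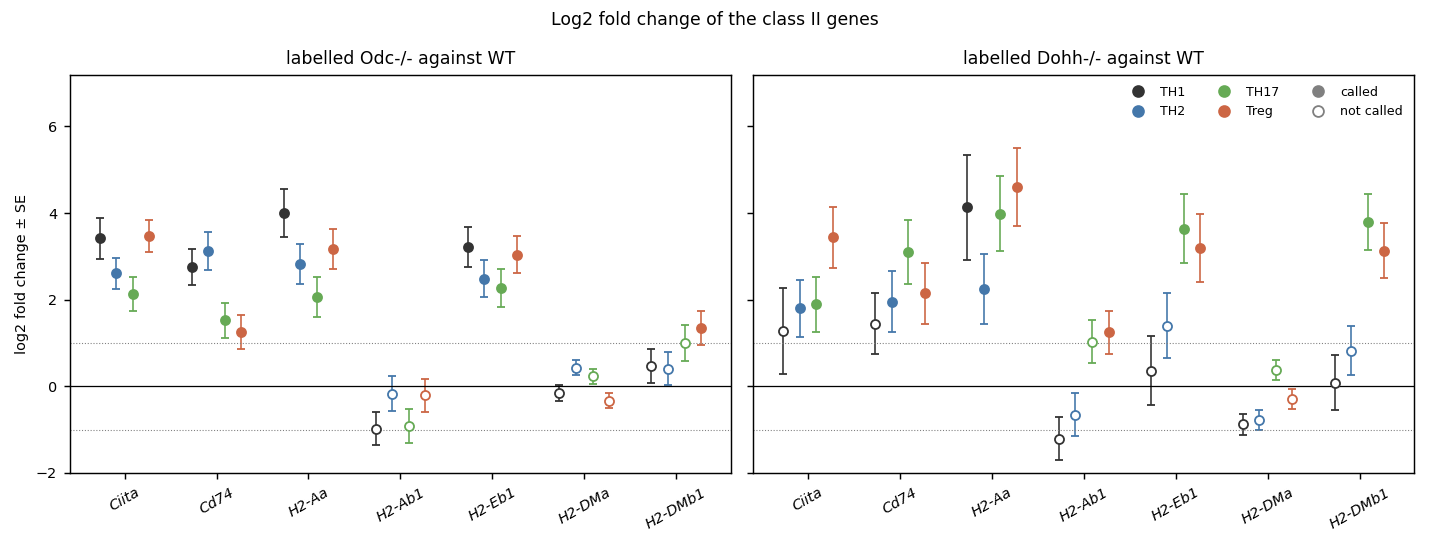
Log2 fold change ± SE (edgeR, y axis) of each class II gene (x axis) in libraries labelled Odc-/- (left) or Dohh-/- (right) against WT, with 1 point per subset, filled where called and open where not, and dotted lines at the threshold of 1 in either direction. Ciita, Cd74, H2-Aa and H2-Eb1 are filled in all subsets on the left, H2-Aa alone on the right, and all points below 0 belong to H2-Ab1 or H2-DMa.

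The I-A chains changed unequally, which appeared as a shift of their ratio within each library. The ratio of H2-Ab1 to H2-Aa RPKM, a measure chosen after the values of the genes were seen, was 162, 147, 96.8 and 61.4 in TH1 WT and 4.09, 2.36, 2.88 and 2.73 in TH1 Odc-/-. In TH2 it was 12.5, 33.0, 11.6 and 11.2 and 1.52, 2.03 and 1.75. In TH17 it was 16.6, 43.9, 12.3 and 16.7 and 4.99, 1.58, 1.95 and 1.88, and in Treg 14.6, 23.7, 10.7 and 18.4 and 1.34, 1.17, 1.67 and 1.45. Every Odc-/- library was thus below every WT library of its subset, and the excess of the beta chain transcript that marked WT cells was smaller in each. In the Dohh table the ratio was 678, 1389 and 228 in TH1 WT and 10.6, 6.38 and 55.3 in TH1 Dohh-/-, the former resting on 2 to 10 counts of H2-Aa. In TH2 it was 18.2, 55.2 and 29.4 and 8.76, 2.97 and 2.65. In TH17 it was 11.5, 18.3 and 13.6 and 2.54, 1.46 and 1.96, and in Treg 16.5, 23.1 and 18.1 and 3.23, 1.71 and 1.78. The groups did not overlap there either, and Dohh-/- replicate 1, the library with the least Lyz2 in TH17 and Treg, was below every WT library as well. Since the ratio was chosen from these values, it is a description and no test is given. A ratio shows that the chains changed unequally and not which of them did.

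**Figure D4:**
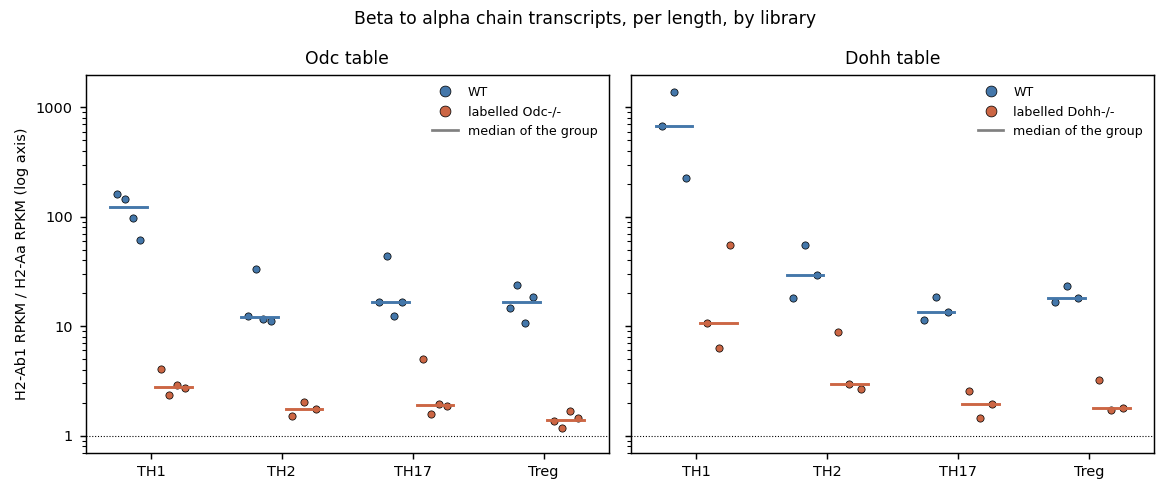
Ratio of H2-Ab1 to H2-Aa RPKM (log axis) in each library by subset, for the Odc table (left) and the Dohh table (right), WT in blue and libraries labelled Odc-/- or Dohh-/- in red, with a bar at the median of the group and a dotted line at equal levels. All red points lie below all blue points of their subset in both tables.

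Other genes of the class II pathway were counted over the 4 subsets of a table, so that a list of n genes gives 4 tests a gene. Over those subsets 8.35% to 13.9% of all genes were called higher and 7.21% to 13.6% lower in the Odc table, and 14.3% to 17.5% higher and 11.6% to 15.2% lower in the Dohh table. The 4 further chains that passed the filter, H2-Oa, H2-Ob, H2-DMb2 and H2-Eb2, were called higher 6 times and lower 3 times of 16 in the Odc table, and higher 1 time and lower 8 times of 16 in the Dohh table. H2-Ea, listed as a pseudogene, had 0 counts in every library. H2-Oa, which shares 22.8% of its exon length with a gene on the opposite strand, and H2-Ob encode H2-O, which restrains H2-M, and their promoters are shown above with the spaced pair of H2-Aa and H2-Eb1, but they did not rise with them. H2-Oa was at 35.9, 35.9, 38.4 and 32.2 CPM in TH2 WT and 10.7, 14.02 and 9.17 in TH2 Odc-/-, and at 55.5, 63.1 and 62.7 in Treg WT and 23.9, 22.2 and 17.3 in Treg Dohh-/-. Over the 8 comparisons it was called lower in 6 and had log2 fold changes of -1.65 to -0.86 in the Odc table and -1.90 to -0.19 in the Dohh table. H2-Ob was called lower in all 4 Dohh comparisons (-2.59 to -1.55) and in 0 of the Odc ones (-1.23 to 0.12, 0 at an unadjusted p below 0.05, edgeR). H2-Eb2, a further beta chain, was called higher in 3 of the 4 Odc comparisons (1.52 to 4.43 over all 4) and lower in Treg of the Dohh table (-4.04). H2-DMb2, the neighbour of H2-DMb1, was called higher in 3 of the 4 Odc comparisons (0.53 to 1.98 over all 4) and in TH17 of the Dohh table (1.97).

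The factors that sit on class II promoters passed the test in few comparisons. The 7 genes of that list (Rfx5, Rfxap, Rfxank, Nfya, Nfyb, Nfyc and Creb1) were called 0 times higher and 2 lower of 28 tests in the Odc table, and 1 higher and 2 lower of 28 in the Dohh table (edgeR). The 0 in the Odc table stood beside 5 at an unadjusted p below 0.05 and 0 by DESeq2. Rfx5 was at 45.7 to 65.0 CPM over WT and 22.8 to 44.5 over Odc-/- libraries, which do not overlap, with differences under the fold threshold in all 4 subsets (log2 fold changes -0.9973 to -0.66). Rfxank was at 20.3 to 35.5 and 13.2 to 19.0 CPM there, also with no overlap (-1.19 to -0.47). Rfxap was at 12.9 to 22.3 and 10.7 to 20.8 CPM (-0.17 to 0.16). In the Dohh table the log2 fold changes were -1.32 to -0.37 for Rfx5, -1.11 to -0.49 for Rfxank and -0.34 to 0.42 for Rfxap. Over all 8 comparisons Rfxank was called lower in 2, Rfx5 lower in 1 and Nfyc, a subunit of NF-Y, higher in 1.

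IFN-γ is the classical inducer of Ciita through JAK kinases and the factor IRF1. Ifng itself was called higher in all 8 comparisons, by 1.15 to 3.96 in the Odc table and 3.73 to 7.99 in the Dohh table (log2 scale). In TH2 it was at 6.86, 3.60, 7.08 and 12.7 CPM in WT and 105, 106 and 65.0 in Odc-/-, and in TH1 at 592, 696, 519 and 1913 and 1052, 2291, 2894 and 2000.0 CPM. The 10 genes of the list were called 4 times higher and 3 lower of 40 tests in the Odc table, and 6 higher and 8 lower of 40 in the Dohh table (edgeR), with medians of -0.30 to -0.10 and -0.16 to -0.04. These shares lay within the ranges of all genes, other than the share lower in the Dohh table, which was above. Jak2, a kinase of the receptor, was called lower in 5 of the 8 and Ifngr2, a chain of the receptor, in 4. Irf1 was called in 0 of the 8 by edgeR (5 at an unadjusted p below 0.05), with log2 fold changes of 0.21 to 0.96 in the Odc table and 0.05 to 0.94 in the Dohh table. The TH2, TH17 and Treg cultures held an antibody that blocks IFN-γ, and those of TH1 did not.

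Of the genes that load class II or turn it over, cathepsins and others, the 11 listed were called 14 times higher and 1 lower of 44 tests in the Odc table, and 13 higher and 1 lower of 44 in the Dohh table (edgeR), with medians of 0.24 to 1.27 and -0.03 to 1.90 over the subsets. Ctsh and Ctsd, which are cathepsins, and Ifi30, a thiol reductase that unfolds antigens in lysosomes, were each called higher in 6 of the 8 comparisons. The log2 fold changes were 1.72 to 2.94 and 1.53 to 4.69 for Ctsh, 0.01 to 1.27 and 1.38 to 2.48 for Ctsd, and 1.19 to 1.67 and 0.44 to 2.02 for Ifi30, in the Odc and the Dohh table. The 10 genes of the class I pathway were called 1 times higher and 0 lower of 40 tests in the Odc table, and 4 higher and 0 lower of 40 in the Dohh table (edgeR), with 1 and 3 lower at an unadjusted p below 0.05 and 0 and 0 lower by DESeq2. Nlrc5, the class I relative of Ciita, was called higher in 2 comparisons, and Erap1, a peptide trimming enzyme, and Psmb9, a subunit of the immunoproteasome, in 1 each. The 5 ligands of costimulation were called 9 times higher and 2 lower of 20 tests in the Odc table, and 6 higher and 4 lower of 20 in the Dohh table (edgeR). Cd40 was higher in all 4 Odc comparisons (1.61 to 3.51) and higher in 1 and lower in 1 of the Dohh ones (-2.39 to 2.55). Icosl was called higher in 4 and lower in 1 of the 8, and Cd86 higher in 3 and lower in 1.

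Markers of the cells that normally make class II moved with genotype too, and their part in the class II results was not tested. In a bulk library a larger number of such cells and more RNA per cell cannot be told apart. The B cell list (12 genes) was called 34 times higher and 1 lower of 48 tests in the Odc table, with 11 of 12 higher in TH1, 10 in TH2, 2 in TH17 and 11 in Treg (edgeR). Its summed level was 77.2, 64.9, 87.2 and 143 CPM in TH1 WT and 1469, 407, 384 and 328 in TH1 Odc-/-, where the library far above the rest is replicate 1, the one in which the class II genes were highest. In the other subsets it was 127 to 302 CPM in WT and 705 to 1099 in Odc-/- for TH2, 96.1 to 117 and 119 to 184 for TH17, and 226 to 259 and 504 to 728 for Treg. Most of the sum in TH17 and Treg came from a single gene, Ighm, an immunoglobulin gene. Ighm was at 84.3 to 97.1 CPM in WT and 103.5 to 152 in Odc-/- for TH17, and at 216.5 to 247.4 and 473.9 to 522.3 for Treg. Cd79a, a chain of the B cell receptor, was at 0.581 to 16.9 CPM over the WT and 0.832 to 71.1 over the Odc-/- libraries of all subsets. None of the 12 was at 0 in every library.

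In the Dohh table the same list was called 7 times higher and 5 lower of 40 tests, over the 10 of its genes that passed the filter. Its summed level was 64.5 to 82.4 CPM in WT and 15.6 to 42.8 in Dohh-/- for TH1, 126 to 224 and 142 to 183 for TH2, 259 to 271 and 378 to 458 for TH17, and 286 to 301 and 570.4 to 852 for Treg. Ms4a1 (CD20) was at 0 to 0.412 and 0 to 0.530 CPM in WT and Dohh-/-, and Cd79a at 0.498 to 9.63 and 0.111 to 11.7 CPM. Cd79b and Blnk, of the same receptor's signalling, were called higher in 7 and 6 of the 8 comparisons of both tables, and Ebf1, a B lineage factor, lower in 5.

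The monocyte and macrophage list (12 genes) was called 20 times higher and 2 lower of 32 tests in the Odc table and 32 times higher and 0 lower of 44 in the Dohh table (edgeR, with 0 lower at an unadjusted p below 0.05 and 0 by DESeq2). In the Odc table its summed level was 14.9 to 51.6 CPM over the WT libraries, and in Odc-/- 68.7, 34.4, 45.5 and 30.2 CPM in TH1, 29.6, 32.0 and 24.3 in TH2, 53.2, 135, 353 and 117 in TH17 and 144, 154, 424 and 120.4 in Treg. Replicate 3 stood apart in TH17 and Treg, with Lyz2 at 25.4, 87.3, 229 and 70.0 and 60.6, 99.7, 289 and 77.2 CPM, and in TH17 it was also the library with the most Ciita, Cd74, H2-Aa and H2-Eb1 and with the most basophil and mast cell markers, at 35.5, 78.0, 311 and 94.99 CPM. Without it those 4 genes were still called in TH17, at 1.81, 1.19, 1.73 and 1.86 on the log2 scale (edgeR), and the 5 calls of Treg remained without replicate 3 of Treg. In the Dohh table it was 23.0 to 41.7 CPM over the WT libraries, and in Dohh-/- 12.5, 150.4 and 73.7 CPM in TH1, 29.5, 275 and 92.5 in TH2, 139.9, 5023 and 1841 in TH17 and 116, 3392 and 2174 in Treg. The Dohh-/- replicates with the most Cd74 and H2-Aa, 2 in TH1 and TH2 and 2 and 3 in TH17 and Treg, were those with the most of these markers. Csf1r, the receptor of a macrophage growth factor, was at 0 to 2.02 CPM over WT and 0 to 150.2 over Dohh-/-, Adgre1 (F4/80) at 0 to 1.36 and 0.111 to 17.4, and Itgam was at 0 in every Dohh library. Itgam shares 68.7% of its exon length with another gene on the same strand, so that 0 is not read as absence of the transcript. Tyrobp was called higher in all 8 comparisons, and Mpeg1 and Spi1 in 7 each.

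The dendritic cell list (10 genes) was called 14 times higher of 24 tests in the Odc table and 18 of 28 in the Dohh table, and 0 times lower in either (edgeR, with 0 lower at an unadjusted p below 0.05 and 0 by DESeq2). Its summed level was 125 to 234 CPM in WT and 168 to 217 in Odc-/- for TH1, which overlap, 156 to 279.9 and 723 to 1264 for TH2, 22.2 to 37.8 and 76.0 to 158 for TH17, and 16.8 to 34.5 and 118 to 225 for Treg. In the Dohh table it was 172 to 175 in WT and 158 to 966 in Dohh-/- for TH1, which overlap, 204 to 253 and 405 to 977 for TH2, 22.6 to 35.8 and 293 to 674 for TH17, and 22.9 to 23.7 and 197 to 352 for Treg. Much of that sum came from Ccl22, a chemokine, and Batf3, which activated T cells are also known to make, with Ccl22 at 589.9 to 1150.0 CPM in TH2 Odc-/- and Batf3 at 121 to 161 in TH1 Odc-/-. Itgax (CD11c) was at 0 to 6.84 and 1.19 to 26.0 CPM in WT and Odc-/-, and at 0.112 to 4.68 and 0.818 to 170.4 CPM in WT and Dohh-/-. Flt3, the receptor of a dendritic cell growth factor, was at 0.583 to 8.89 and 1.69 to 22.2 CPM, then 0 to 3.95 and 0.331 to 9.52, and Zbtb46, a factor of classical dendritic cells, at 0.697 to 5.48 and 1.99 to 13.9, then 1.45 to 5.50 and 2.21 to 11.8. Xcr1, Clec9a, Siglech and Cd209a, which define dendritic cell classes, did not pass 3 counts in any library of the Odc table, which held for Cd209a in the Dohh table too. In the Dohh table Clec9a was called higher in 2 of its 4 comparisons (log2 fold changes 2.70 to 6.79 over all 4), and Xcr1 and Siglech did not pass the filter. Itgax was called higher in 7 of the 8 comparisons of both tables, Ccl22 in 7 and Batf3 in 5. Basophil and mast cell markers (8 genes) were called higher in 31 of 32 tests in the Odc table and 32 of 32 in the Dohh table, with a summed level of 2.79 to 18.4 CPM in WT and 14.04 to 311 in Odc-/-, and 2.83 to 5.45 and 64.6 to 1164 in the Dohh table. Mcpt8, a basophil protease, was at 0.413 to 5.09 and 2.72 to 97.3 CPM, then 0.224 to 1.45 and 7.77 to 513, and Prss34, Ms4a2 and Fcer1a were called higher in all 8 comparisons.

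**Figure D5:**
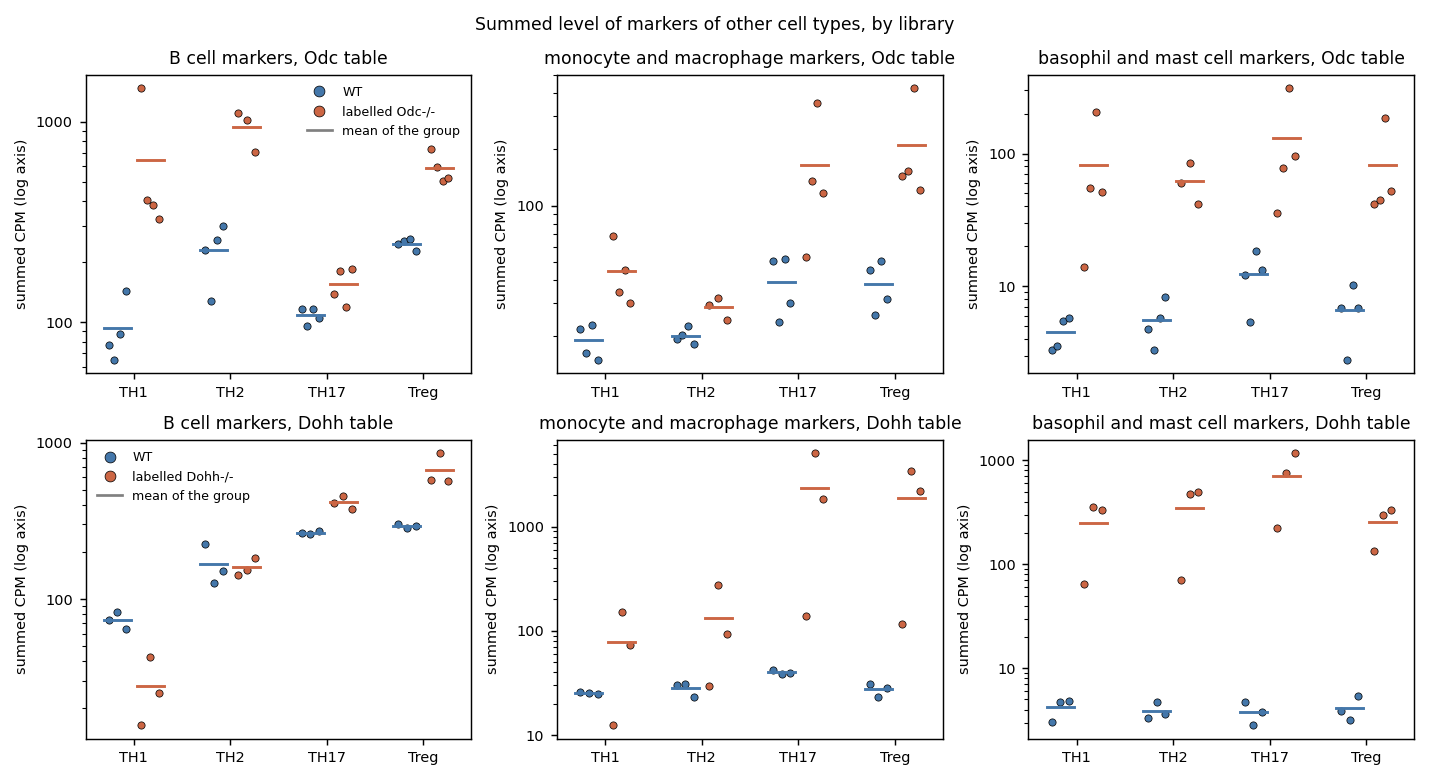
Summed CPM (log axis) of the B cell, the monocyte and macrophage and the basophil and mast cell marker lists in each library by subset, Odc table above and Dohh table below, WT in blue and libraries labelled Odc-/- or Dohh-/- in red, with a bar at the mean of the group. B cell markers stand high in 1 TH1 Odc-/- library (1469 CPM), monocyte and macrophage markers in 2 Dohh-/- libraries each of TH17 and Treg, and basophil and mast cell markers are higher in the red points of all 8 groups.

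The T cell list (10 genes) was called 0 times higher and 6 lower of 40 tests in the Odc table and 0 higher and 16 lower of 40 in the Dohh table (edgeR, with 4 higher in each at an unadjusted p below 0.05 and 0 by DESeq2). The 6 became 2 without replicate 2 of the TH2 Odc-/- libraries. Cd28 was called lower in 6 of the 8 comparisons, Cd4 in 5 and Cd2 in 5, and Cd3e in 0 (log2 fold changes -0.69 to 0.08 and -0.57 to -0.07). Of the factors that define the subsets, Tbx21 (T-bet of TH1 cells) was called higher in 7 of the 8 and Foxp3 (of Treg cells) higher in 1 and lower in 3.

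Genes with the pattern most like that of the 7 were found by Pearson r between the log2 CPM of a gene and the mean standardized log2 CPM of the 7, over the 31 libraries of the Odc table and the 24 of the Dohh table, among 12924 genes tested in both. Ranked by the lower of the 2 values, the 10 first outside the members were Bcar3 (0.87 and 0.87), Il4i1 (0.94 and 0.87), Ctsh (0.84 and 0.96), Hvcn1 (0.82 and 0.85), Ly86 (0.81 and 0.87), Lrrk2 (0.80 and 0.84), Kmo (0.89 and 0.79), Bcl11a (0.83 and 0.79), B3gnt7 (0.87 and 0.79) and Ifi30 (0.78 and 0.91), with r in the Odc table first. These are descriptions over libraries that share genotype, subset and experiment. The members' own values against that mean, of which each is a part, were H2-Eb1 (0.91 and 0.97), H2-Aa (0.90 and 0.91), Cd74 (0.86 and 0.94), H2-DMb1 (0.85 and 0.87), Ciita (0.85 and 0.86), H2-DMa (0.71 and 0.65) and H2-Ab1 (0.35 and 0.76). H2-Ab1 thus followed the other class II genes least in the Odc table.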

How the data were processed

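The deposited tables hold whole-number read counts per gene, which the authors made with STAR and featureCounts on mm10, per the processing notes in the labels. Those notes also name DESeq2 and deepTools, and no versions are given in the sources used here. Libraries were TruSeq stranded mRNA. The strand setting of the counting is not given in the sources used here. Replicate 1 of TH2 Odc-/- was not analysed here.

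The deposited counts were tested in R 4.3.3 with edgeR 4.0.16, each table on its own with 8 groups sharing one estimate of the spread (TMM, filterByExpr, robust quasi-likelihood F-test, Benjamini-Hochberg over all genes tested). The study's thresholds were used, an absolute log2 fold change above 1 and an adjusted p below 0.05. SE is the log2 fold change divided by the square root of F. WT subsets were compared in pairs, the genotype by subset interaction was tested on 3 terms per gene with no fold threshold, and both tables entered one fit for the difference between the deletions. RPKM was computed with the exon lengths of GENCODE M21 (47310 of 47937 genes matched by identifier). Low-count ratios have exact conditional intervals. Alternatives were another scaling (RLE), no filter, the replicate block, a test of the 2-fold change (glmTreat), only the compared groups, DESeq2 1.42.0, no fold threshold, another length, and each library left out. The fit was tested on simulated data. Summaries and figures used Python 3.11.15, pandas 2.3.3, scipy 1.17.1 and matplotlib 3.10.9.

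Depth was 5905374 to 12576933 counts per library. No pair of replicates agreed within sampling noise (chi-square per degree of freedom 2.48 to 139 over 69 pairs). The 7 genes and all gene lists were chosen with earlier results of these data known. Named in the text are the 7 genes, a set of further genes fixed by name, and from each list the 3 genes called in the most of the 8 comparisons. H2-DMb2 and the genes of the promoter search are named beside them, chosen after their values were seen. Some genes of the lists are not reported here by name.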

Additional observations from a re-analysis of the deposited data

Results flagged for a closer look

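In groups of 4 libraries, all of them in the Odc table, 11 of the 49 groups checked held a library that stood apart. Its gap to the nearest other was large for the range of its group. Chance alone gives about 1 in 20 where groups are independent, which these were not, since the 7 genes share libraries. Replicate 1 of TH1 Odc-/- was the highest of its group for 6 of the 7 genes in this way, at 662 CPM for Cd74, 8.91 for Ciita, 79.6 for H2-Aa, 219.9 for H2-Ab1, 103 for H2-Eb1 and 39.1 for H2-DMa. Replicate 1 of Treg Odc-/- stood high for Ciita at 27.8 CPM. Among WT libraries, replicate 4 of TH1 stood high for Cd74 at 115 CPM, replicate 4 of TH17 low for H2-Ab1 at 95.6, replicate 1 of TH2 low for H2-Ab1 at 265, and replicate 2 of TH2 low for H2-Eb1 at 14.5.

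The change with genotype differed between subsets by the edgeR interaction test for Cd74 in the Odc table (adjusted p = 0.0222) and, in the Dohh table, for H2-Ab1 (adjusted p = 0.0311), H2-DMa (adjusted p = 0.0318) and H2-DMb1 (adjusted p = 0.00959). The change in libraries labelled Odc-/- minus that in libraries labelled Dohh-/- was called for H2-Eb1 in TH1 at 2.85 on the log2 scale, for H2-DMa in TH2 at 1.23, and in TH17 for H2-Ab1 at -1.996 and H2-DMb1 at -2.86. The Dohh values of TH17 and Treg in these tests include the high Lyz2 libraries.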

How the results depend on the processing

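The direction of the 56 fold changes of members held under RLE scaling, no filter, the replicate block, glmTreat, DESeq2 and no fold threshold, and that of the 55 that could be fitted with only the 2 groups compared. Of 385 values with a library left out, 345 kept direction and side of the threshold, 26 were no longer called, 10 became called and 4 reversed. For the changes below the cause was not tested.

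The number of members called lower in TH1 Odc-/- (0) was 1 under RLE, DESeq2 and no fold threshold, and that in TH1 Dohh-/- (0) was 1 with only the 2 groups, DESeq2 and no fold threshold, which also gave 1 lower in TH2 Dohh-/- (0). With glmTreat the members called higher were 2 in TH17 Odc-/- (4), 3 in Treg Odc-/- (5) and 0 in TH2 Dohh-/- (3), the last also 0 with no filter. With both high Lyz2 libraries left out, 1 was called in TH17 Dohh-/- (5) and 1 in Treg Dohh-/- (6), and values reversed for H2-Ab1 (-0.77) and H2-DMa (-0.16) in TH17 and for Cd74 (-0.088) and H2-Ab1 (-0.51) in Treg. With no filter the WT pairs gave 1 call for TH17 and TH1 of the Odc table (2), 0 for TH17 and TH2 (1) and 1 for Treg and TH2 (2, also 1 under RLE) of the Dohh table, the Odc interaction gave 0 (1, and 2 under RLE), and the difference between the deletions 0 in TH1 (1) and 1 in TH17 (2).

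Correlations of same-numbered WT and deleted libraries ran from -0.086 to 0.196, and in no comparison were all above 0.1. With so few libraries per group this cannot show whether they were paired, and the main fit used no pairing. Across subsets, Odc-/- replicate 3 held the most Mcpt8 of its group each time, at 46.9 CPM in TH1, 29.6 in TH2, 97.3 in TH17 and 54.4 in Treg. Dohh-/- replicate 1 held the least Lyz2 and the least Mcpt8 of its group in every subset. Whether same-numbered libraries share a source was not tested, so agreement over subsets may not be agreement between independent libraries. The replicate block gave 1 member called lower in TH1 Odc-/- (0) and 1 in TH1 Dohh-/- (0), 2 in the Odc interaction (1), 2 for the difference between the deletions in Treg (0) and 3 T cell markers lower over the Odc subsets (6).

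When single libraries were left out, members called lower ranged from 0 to 1 in TH1 and TH17 Odc-/- and in TH1 and TH2 Dohh-/-, and those called higher from 0 to 2 in TH1 and 0 to 3 in TH2 Dohh-/-. WT pairs of the Odc table ranged from 1 to 2 for TH17 and TH1 (1 without replicate 1, 3 or 4 of TH17 or replicate 1 or 2 of TH1) and 2 to 5 for Treg and TH2 (2 without Treg replicate 2 or 4). WT pairs of the Dohh table ranged from 1 to 3 for TH2 and TH1 (1 without TH1 replicate 1 or 2), 1 to 3 for Treg and TH1 (1 without TH1 replicate 1 or 2 or Treg replicate 2), 0 to 2 for TH17 and TH2 (0 without TH17 replicate 1 or 2 or TH2 replicate 2), and 0 to 1 for Treg and TH2 (0 without Treg replicate 1). List counts over the subsets ranged in the Odc table from 3 to 5 for other chains lower (5 without Treg Odc-/- replicate 1), 1 to 2 for class I higher, 0 to 2 for B cell markers lower, 2 to 7 for T cell markers lower and 1 to 2 for subset factors lower, and in the Dohh table from 1 to 2 for promoter factors lower and 1 to 2 for loading genes lower. Values that reversed ranged from -0.52 to 0.024 for H2-Ab1 in Treg Odc-/-, -1.19 to 0.82 for H2-Eb1 in TH1 Dohh-/- and -0.37 to 0.45 for H2-DMb1 in TH1 Dohh-/-, none called at either end.

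Depth limited Ciita and H2-Aa in TH1 of the Dohh table, where WT libraries held 2 to 3 and 2 to 10 counts. It also limited Ciita in TH2 and Treg of that table, where WT libraries held 1 to 33 and 1 to 14 counts.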
